A study of Mus musculus with 41 samples.

Results

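Proliferins are secreted hormones of the prolactin family that are made in the mouse by a cluster of near-identical Prl2c genes. They are best known from trophoblast giant cells of the placenta and from fibroblast lines, in which serum and growth factors switch them on, and they act as growth and angiogenic factors through the mannose 6-phosphate receptor Igf2r rather than through the prolactin receptor. The gene names searched for were Prl2c2, Prl2c3, Prl2c4 and Prl2c5, and they were chosen by the measured difference between spindle cell and epithelial tumors on these same arrays. Of these 4 names, only Prl2c5 is carried by a probe, so the account rests on 1 of 30175 gene names and on 2 of 39429 probes. Prl2c2, Prl2c3 and Prl2c4 have no probe under their own name.

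The tumors arose from Trp53-null BALB/c mammary epithelium that had been placed in the emptied fat pads of wild-type BALB/c females. The hosts ate a low fat diet (LFD), a diet high in animal fat (HFD), HFD in puberty followed by LFD (HFD-LFD), or LFD in puberty followed by HFD (LFD-HFD). All tumor cells therefore lacked Trp53, the host stroma did not, and fragments came from several donors, so tumors of different mice may share a donor. By the morphology label, 12 tumors were spindle-like, with 3 in each regimen, and 29 were of the variable type, called epithelial in the study, with 8 on LFD, 8 on HFD, 7 on HFD-LFD and 6 on LFD-HFD. Early onset was labelled for 3 of the spindle cell and 14 of the epithelial tumors, and late onset for 9 and 15. Tumor RNA carried Cy5 by the labels, and a common reference of pooled mouse cell lines carried Cy3, so each value is the log2 of the tumor over the reference signal.

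Some facts of the series bear on every value below. Genes of the Y chromosome had a median log2 ratio below 0 on 38 of 41 arrays, the direction that female tumors in the Cy5 channel give against a mixed reference, while the study's methods name the dyes the other way round. Mesenchymal markers were higher in spindle cell than in epithelial tumors for 8 of 18 genes and lower for 0 (limma, adjusted p under 0.05). Their median log2 difference was 0.82. Of 12 epithelial markers 0 were called, with a median difference of -0.73 over the genes. Over all probes 8.63% were higher and 12.7% lower. The mean ratio of the epithelial markers ran from -1.88 through a median of 1.30 to 1.82 in spindle cell tumors. In epithelial tumors it ran from 0.35 through 1.38 to 3.51. That of the mesenchymal markers ran from -1.96 through -0.25 to 0.36 in spindle cell tumors and from -2.17 through -1.24 to -0.01 in epithelial tumors. On both lists the tumors of the histologies thus overlapped. Spindle cell tumors lay on 3 slides, read on a scanner and by a software version of their own, and the epithelial tumors on 8 other slides, so the array batch and the histology cannot be told apart. In tissue, more cells that make an RNA and more RNA per cell cannot be told apart either. Among the epithelial arrays, slide 5 was read in another scan session (scanner or day) than the rest. It held the early HFD tumors 42L4B and 60L, with 3.5% and 22% of spots marked as outliers.

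Both Prl2c5 probes are 60 bases long and lie next to each other in the last part of the transcript on chromosome 13. The first, A_52_P619248, is placed by the files (build NCBI37/mm9) over chr13:13282998-13283933, a stretch longer than the probe itself, so that it crosses an intron, and it is called the junction probe here. The second, A_55_P2004752, lies without a gap at chr13:13283943-13284002 and is called the exon probe. The sequences are shown because they are what the array read in place of 4 separate genes.

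Junction probe: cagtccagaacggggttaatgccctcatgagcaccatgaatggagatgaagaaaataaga

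Exon probe: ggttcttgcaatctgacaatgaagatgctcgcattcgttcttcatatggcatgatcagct

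By the accessions in the files, the junction probe stands for Prl2c5 and Prl2c1, and the exon probe for Prl2c5, Prl2c2 and Prl2c3. Another accession of the exon probe was not matched to a gene in the RefSeq table. The near-identical genes may therefore share signal on either probe, and no value of these probes can be given to 1 of them. No other probe of the array shares a run of 15 bases with either sequence, and the separate Prl2c1 probe (chr13:27948312-27948371) is described further on.

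Promoters were given for Prl2c3 and Prl2c5 only (RefSeq, GRCm38.p6, 250 bases before to 50 after the start). They are shown because the exon probe stands for both genes and because the start regions make plain how alike the genes are: 287 of 301 aligned positions were identical, with 12 mismatches and 2 gaps. Capitals mark the letters of an AP-1-like pattern and of a TATA-like run, both spelled out after the sequences and each searched on both strands.

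Prl2c3 (chr13:12800030-12800329, minus strand): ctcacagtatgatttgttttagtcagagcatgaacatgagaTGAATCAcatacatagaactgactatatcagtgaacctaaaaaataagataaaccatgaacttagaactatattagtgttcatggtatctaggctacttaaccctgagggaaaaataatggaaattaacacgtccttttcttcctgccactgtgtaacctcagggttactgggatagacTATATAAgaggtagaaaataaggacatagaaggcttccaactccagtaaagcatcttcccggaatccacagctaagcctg

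Prl2c5 (chr13:13182466-13182765, plus strand): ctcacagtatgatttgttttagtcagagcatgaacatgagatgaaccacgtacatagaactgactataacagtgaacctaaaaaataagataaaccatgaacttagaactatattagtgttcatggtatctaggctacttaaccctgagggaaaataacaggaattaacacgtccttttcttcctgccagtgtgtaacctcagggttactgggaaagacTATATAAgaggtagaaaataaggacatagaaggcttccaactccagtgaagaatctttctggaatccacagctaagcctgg

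The TATA-like run TATATAA began 30 bases before the start of Prl2c3 and 31 bases before that of Prl2c5, and it is found in 3.24% of 32851 promoters of this length. The AP-1-like letters TGANTCA, with any base allowed at N, occurred once in the Prl2c3 window, as TGAATCA, 209 bases before the start. They did not occur in the Prl2c5 window, and they are found in 7.81% of all promoters. Whether AP-1 binds either window was not tested. These matches are descriptions of the letters.

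Proliferin signal differed enormously between spindle cell tumors. On the junction probe the tumor signal ran from 77.6 in M76R through a median of 4133 to 106882 in M118R, a 1378-fold range, and on the exon probe from 72.5 in M76R through 4148 to 103536 in M118R, a 1429-fold range. On both probes all 12 spindle cell tumors gave a Cy5 signal that the software marked as well above background, and no spot was saturated.

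As log2 ratios on the junction probe, 6 tumors were high, with 7.35 in M129L, 7.38 in M56LA, 7.68 in M118R, 7.76 in M84R, 7.92 in M33R and 8.38 in M63L. Intermediate ratios of 4.38 and 4.98 were found in M18L and M54R. The other 4 were low, with 1.85 in M76R, 2.26 in M86R, 2.26 in M32L and 2.49 in M128L. The high tumors came from all 4 regimens and from both onset groups, whereas the low tumors came from LFD, HFD-LFD and LFD-HFD mice and from no HFD mouse.

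On the exon probe the same 4 tumors were lowest, with 3.57 in M76R, 4.37 in M32L, 4.40 in M86R and 4.65 in M128L. Above them followed M54R at 5.94, M118R at 6.57, M84R at 6.79 and M56LA at 7.06. The upper end held M18L at 7.12, M33R at 7.31, M129L at 7.33 and M63L at 7.68. M63L was thus highest and M76R lowest on both probes, whereas M18L and M118R changed places between them.

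**Figure D1:**
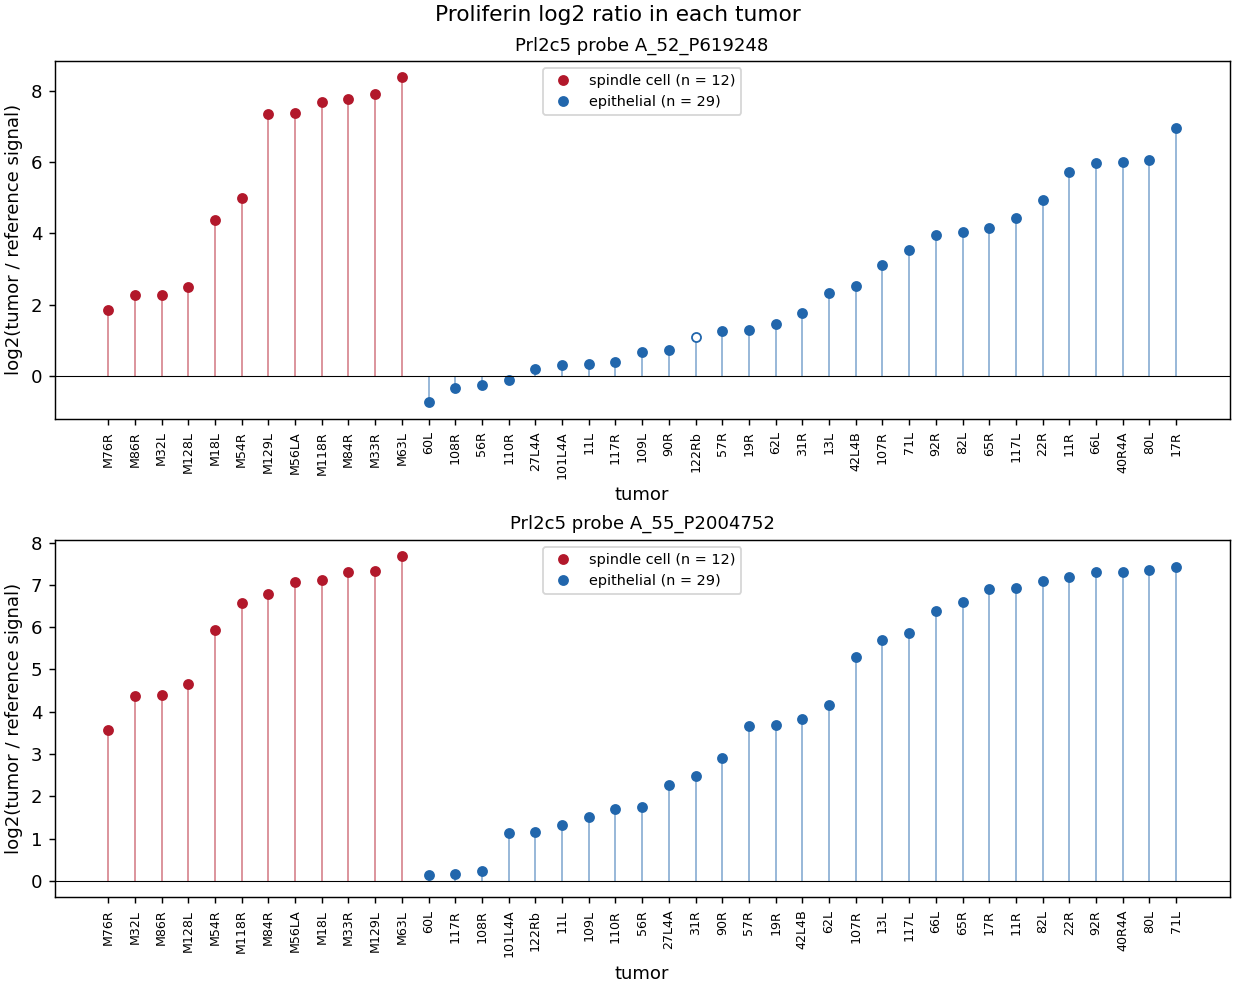
Log2 of tumor over reference signal (y axis) in each tumor (x axis, sorted within a histology) for both Prl2c5 probes; red points are the 12 spindle cell and blue points the 29 epithelial tumors, and the open point is a spot marked as an outlier. All spindle cell ratios lie above 0, from 1.85 to 8.38 on the junction probe, and the epithelial ratios reach from -0.74 to 6.96.

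Several arrays of the low tumors also stood apart in other measures. Among spindle cell tumors M76R had the smallest percentage of spots with a Cy5 signal above background (59.1%, against 61.5% to 72.7% in the others), and M32L had the narrowest spread of log2 ratios, with an interquartile range of 0.99 against 1.45 to 1.76. The 8 muscle and fat markers had a mean log2 ratio of 0.17 in M76R and -1.47 in M32L, against -5.58 to -3.49 in the other 10 tumors, M86R (-4.11) and M128L (-5.24) included. The part of other tissue in the low values was not tested.

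Epithelial tumors ranged from signals near background to signals as high as in spindle cell tumors. Junction probe ratios were 2.52 ± 2.35 (SD, n = 28), from -0.74 in 60L through a median of 2.04 to 6.96 in 17R, after 1 outlier spot, in a late HFD-LFD tumor, was left out. Exon probe ratios were 4.12 ± 2.62 (SD, n = 29), from 0.15 in 60L through a median of 3.83 to 7.42 in 71L, but the lowest, the median and the highest of these all rest on a reference signal that was not above background and had been replaced by a surrogate, so their exact values and order are uncertain. The tumor signal was well above background in 25 of 29 tumors on the junction probe and in 23 of 29 on the exon probe. Among those it ran from 31.2 and 28.6 upwards, and 17R, an early LFD tumor, stood far above the rest with 89105 and 87814. The next highest epithelial signal, in 80L, was 4134 on the junction probe and 4789 on the exon probe. A proliferin signal as high as that of the highest spindle cell tumors was therefore also seen in an epithelial tumor.

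Spindle cell tumors were higher on average, the contrast by which the genes had been chosen and for which no test is given. Mean ratios were 5.39 ± 2.62 (SD, n = 12) on the junction probe and 6.07 ± 1.43 (SD, n = 12) on the exon probe, a log2 difference of 2.88 and 1.95 from the epithelial means, or 7.34-fold and 3.87-fold. Over all 32125 probes that passed the signal filter, 21.3% differed between the histologies by limma at an adjusted p under 0.05, 8.63% being higher and 12.7% lower in spindle cell tumors. The groups overlapped: 6 of 12 spindle cell tumors exceeded the highest epithelial tumor on the junction probe and 1 of 12 on the exon probe, while 11 of 12 exceeded the epithelial median on each.

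Late tumors alone gave larger differences of 4.02 and 3.03 on the log2 scale, since early epithelial tumors had higher ratios than late ones. Endothelial markers, which mark the vessels that proliferins are known to act on, were higher in spindle cell tumors for 4 of 8 genes and lower for 0. Over all probes 8.63% were higher and 12.7% lower. Among spindle cell tumors the mean log2 ratio of the endothelial markers was highest in M76R (1.13) and M32L (1.04), against -1.15 to 0.04 in the other 10. M76R and M32L also had the highest means of the muscle and fat markers (0.17 and -1.47). Both were low in proliferin, but so were M86R (-0.68) and M128L, which had the lowest mean (-1.15). A relation of these markers to proliferin was not tested.

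The reference channel set limits to these ratios, above all on the exon probe. There the reference signal was well above background on 7 of 12 spindle cell and 6 of 29 epithelial arrays, and the software had replaced it by a surrogate on 1 and 14 arrays. On the junction probe it was well above background on all 12 spindle cell and 21 of 29 epithelial arrays. Reference RNA was the same on every array, yet its exon probe signal was 1093 for M118R and 739 for 17R, the arrays with the highest tumor signals, against medians of 30.7 and 5.85 over the spindle cell and epithelial arrays. The junction probe showed the same, with reference signals of 521 and 717 beside medians of 46.1 and 35.6. Hence the exon probe ratio stopped near 7 over a wide range of tumor signals: 71L had a ratio of 7.42 with a tumor signal of 1005, and 17R a ratio of 6.89 with 87814. Junction probe reference signals were also raised at modest tumor signals on some late epithelial arrays. In 11L the reference signal was 151 beside a tumor signal of 189. On slide 4 reference signals of 201 and 331 lay beside tumor signals of 320 and 697, and the spot with 331 was an outlier left out of the ratios. What raised the reference signal was not tested.

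**Figure D2:**
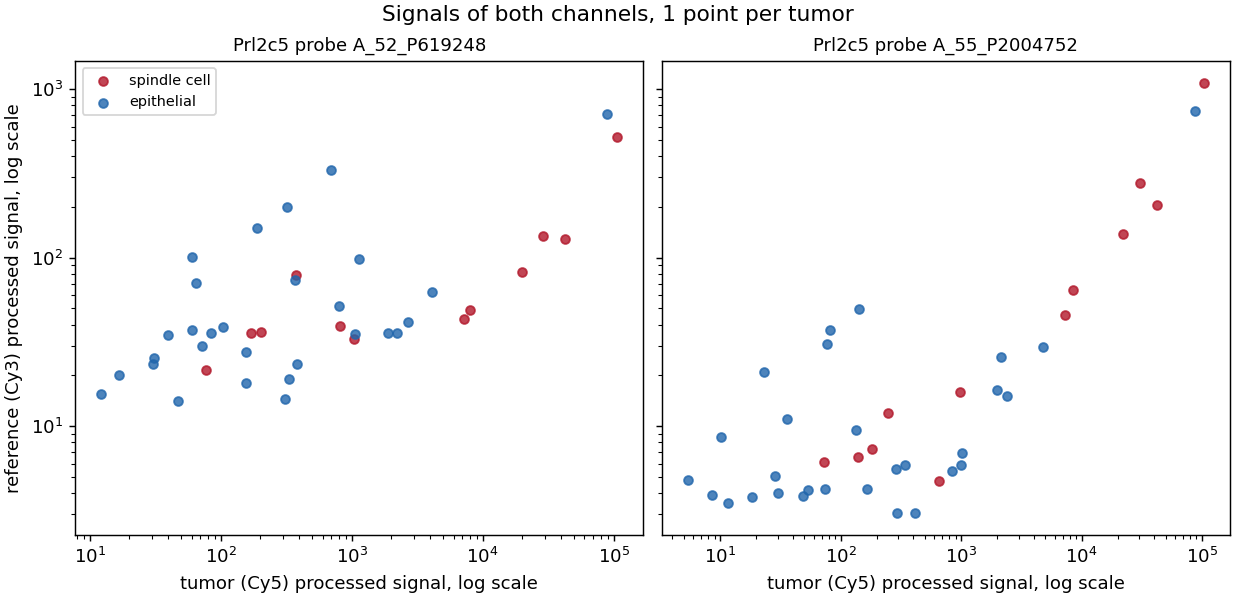
Processed reference (Cy3) signal on the y axis against processed tumor (Cy5) signal on the x axis, both on log scales, for each tumor and both Prl2c5 probes (red, spindle cell; blue, epithelial). Reference signals climb with tumor signals at the right of both panels, up to 521 for M118R on the junction probe and 1093 on the exon probe.

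Taken from the tumor channel alone, each array scaled to its upper quartile, the difference between spindle cell and epithelial tumors was 3.71 on the junction probe and 4.17 on the exon probe. In ratios the differences were 2.88 and 1.95, and the scale of the tumor channel was added after the reference signals had been seen.

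Both probes ranked the tumors alike. Their log2 ratios correlated with r = 0.91 (permutation p = 0.00013) and rho = 0.81 (permutation p = 0.00215) over 12 spindle cell tumors, and r stayed at 0.87 without M76R and M86R, the tumors farthest from the median. Over 28 epithelial tumors r was 0.91 and rho 0.89 (permutation p = 1e-05 for each, the smallest that 100000 permutations can give), and r was 0.92 without 17R and 80L. Adjusted over the 6 relations examined, the p-values of r were 0.00039 and 6e-05 and those of rho 0.00322 and 6e-05. The probes share targets, array and reference, so these are repeat readings of 1 gene cluster.

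**Figure D3:**
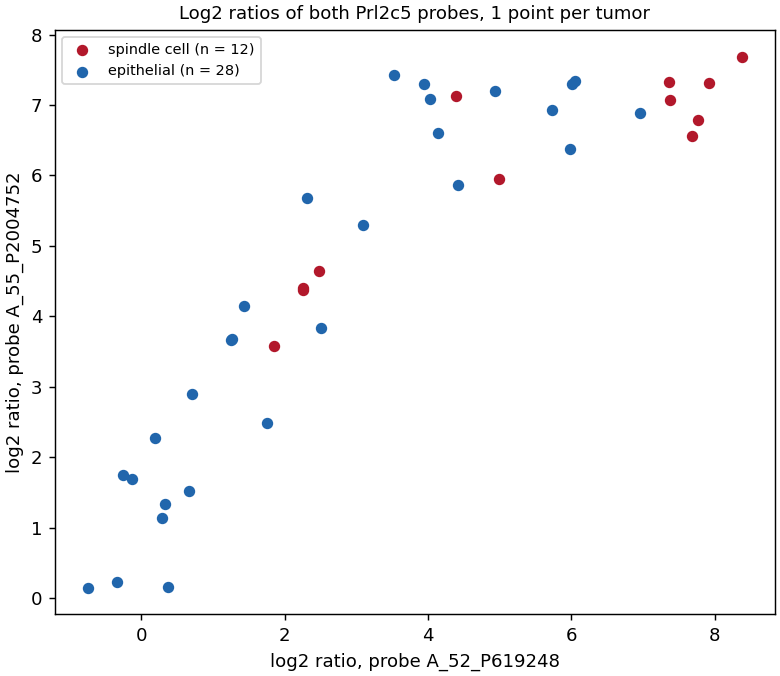
Log2 ratio of the exon probe (y axis) against that of the junction probe (x axis), 1 point per tumor (red, 12 spindle cell; blue, 28 epithelial). The points rise together, with r = 0.91 in each histology, and flatten above a junction probe ratio of about 4, where exon probe ratios stay between 5.86 and 7.68.

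Few probes varied as much from tumor to tumor, except for the exon probe in spindle cell tumors. Among 32125 probes the SD of the junction probe over epithelial tumors was the 43rd largest and that of the exon probe the 15th largest, against a median SD of 0.61. The SD of the exon probe there includes the ratios that rest on a surrogate reference signal. Over spindle cell tumors the junction probe ranked 90 of 32124 with an SD of 2.62, and the exon probe ranked 2100 with 1.43, against a median SD of 0.56. The smaller spread of the exon probe in spindle cell tumors goes with its ratios near 7.

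Diet groups of spindle cell tumors did not separate on either probe. Junction probe ratios were 6.91 ± 1.74 on HFD, 5.84 ± 2.91 on HFD-LFD, 4.85 ± 2.86 on LFD and 3.96 ± 3.30 on LFD-HFD (SD, n = 3 each), and the ranges of neighbours in this order overlapped. Exon probe ratios followed another order, with 6.90 ± 0.88 on HFD, 6.27 ± 1.65 on LFD, 6.18 ± 1.38 on HFD-LFD and 4.92 ± 1.67 on LFD-HFD (SD, n = 3 each). By limma's F-test over all probes the adjusted p was 0.983 for each probe, and 0% of 32112 probes were called, with 1274 at an unadjusted p under 0.05.

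Pubertal HFD (HFD and HFD-LFD) was set against pubertal LFD (LFD and LFD-HFD), a grouping that the study also used for its arrays. The study asked about both puberty and adulthood. The junction probe ratio was 6.38 ± 2.22 after pubertal HFD, from 2.49 through a median of 7.37 to 8.38, and 4.41 ± 2.81 after pubertal LFD, from 1.85 through 3.32 to 7.92 (SD, n = 6 each). Its difference of 1.97 (95% CI -0.85 to 4.79) had an adjusted p of 0.644 in limma, and that of the exon probe, 0.94 (-0.64 to 2.53), an adjusted p of 0.694. The groups overlapped over most of their range. By limma 0% of 32120 probes were called, and 2889 had an unadjusted p under 0.05. On the 3 slides the junction probe differences were 1.53, 1.46 and 4.42, and those of the exon probe 1.17, -0.94 and 2.43, each with 1 to 3 tumors a side. M32L, M76R and M86R, 3 of the 4 lowest tumors, all belonged to pubertal LFD mice, while M128L, the other low tumor, belonged to a pubertal HFD mouse.

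Adult HFD against adult LFD gave a difference of 0.09 (95% CI -2.98 to 3.16) on the junction probe and -0.31 (-1.99 to 1.37) on the exon probe, with an adjusted p of 1 in limma for each, 0% of all probes called and 883 at an unadjusted p under 0.05. Both adult groups held high and low tumors, from 1.85 to 8.38 on adult HFD and from 2.26 to 7.92 on adult LFD. The sign of the difference turned between slides, with -2.25 and 2.94 on the junction probe and -1.5 and 1.64 on the exon probe on the 2 slides that held both groups.

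Onset did not separate spindle cell tumors either. The 3 early tumors had junction probe ratios of 2.26, 7.35 and 7.76 and exon probe ratios of 4.40, 7.33 and 6.79, within the range of the 9 late tumors. Early minus late differences were 0.53 (95% CI -2.98 to 4.05) and 0.14 (-1.80 to 2.09), with an adjusted p of 1 in limma, 0% of 32117 probes called and 779 at an unadjusted p under 0.05. Within slides they were 2.05, 2.50 and -2.95 on the junction probe and 0.81, 1.22 and -1.60 on the exon probe, from 1 early tumor on each slide. With 3 early tumors these intervals leave room for large changes in either direction.

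**Figure D4:**
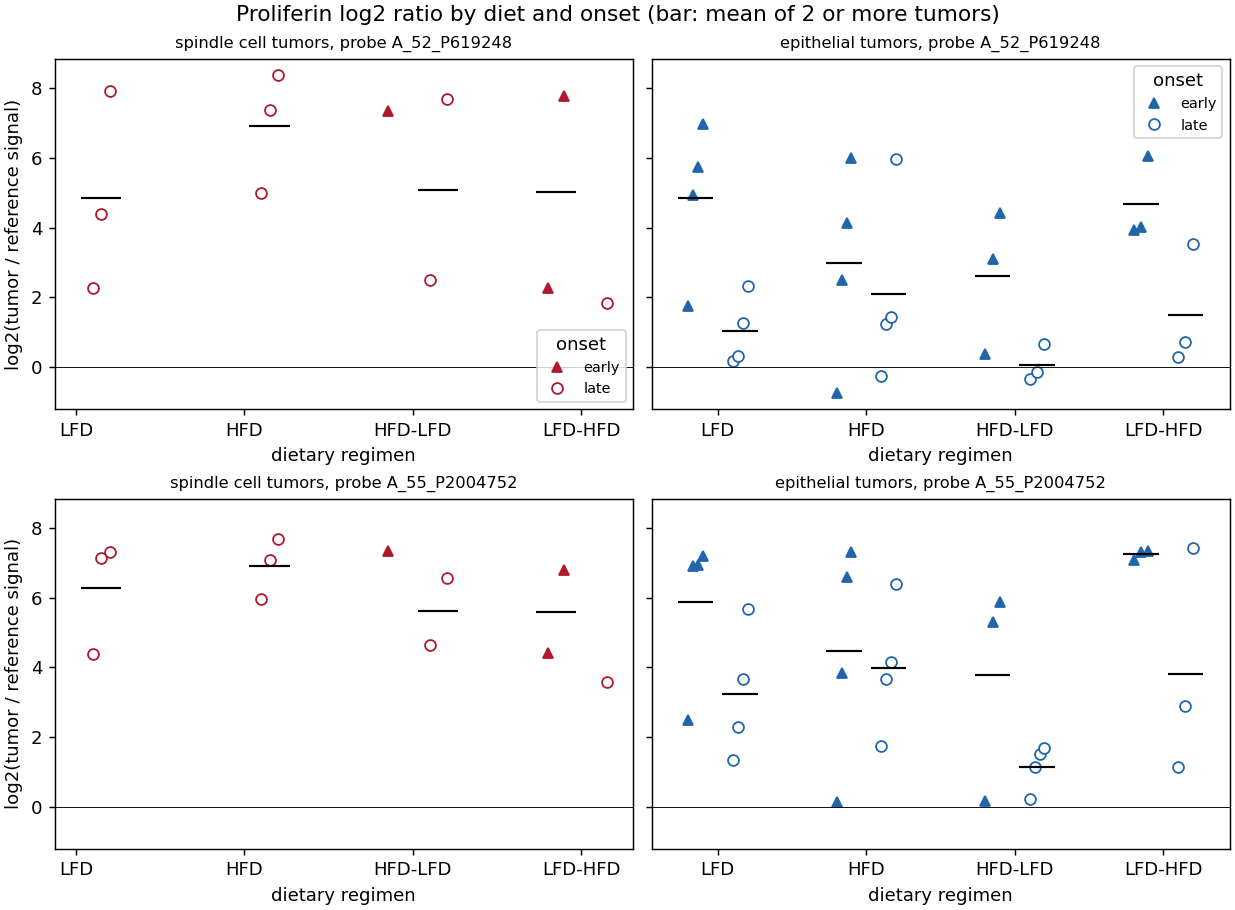
Log2 of tumor over reference signal (y axis) by dietary regimen (x axis) for spindle cell (left, red) and epithelial tumors (right, blue) and both Prl2c5 probes; filled triangles are early, open circles late tumors, and bars are means of at least 2 tumors. With the tumors labelled as in the scanner files, early epithelial means exceed late means in every regimen on both probes. In LFD and HFD-LFD the early and late epithelial tumors lie on different slides. In HFD the excess is 0.88 and 0.48, and it turns to -0.57 and -0.99 with the labels of the authors' matrix. The 3 spindle cell tumors on LFD-HFD reach from 1.85 to 7.76 on the junction probe.

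Early epithelial tumors had higher ratios than late ones on both probes, a difference that did not pass the adjusted threshold. Junction probe ratios were 3.80 ± 2.22 (SD, n = 14) in early tumors, from -0.74 through a median of 4.09 to 6.96, and 1.23 ± 1.73 (SD, n = 14) in late tumors, from -0.34 through 0.69 to 5.97. The early minus late difference was 2.57 (95% CI 1.11 to 4.02) with an unadjusted p of 0.00112 and an adjusted p of 0.162 in limma. On the exon probe the means were 5.31 ± 2.62 (SD, n = 14) and 3.0 ± 2.13 (SD, n = 15), a difference of 2.32 (0.61 to 4.02) with an unadjusted p of 0.00938 and an adjusted p of 0.254. At the threshold of 0.10 neither probe was called, and 0.118% of 32125 probes were. Onset and slide went together in part, as set out below. Some late arrays also had a narrow spread of log2 ratios. Interquartile ranges were 1.05 in 11L and 1.02 and 1.04 for arrays of slide 4, against a median of 1.52 over epithelial arrays. The part of these arrays in the onset difference was not tested.

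On each probe 12 of 14 early tumors exceeded the late median, and 1 late tumor exceeded the early median. That late tumor was 66L on the junction probe, with 5.97, and 71L on the exon probe, with 7.42. At the other end, the early HFD tumor 60L and an early HFD-LFD tumor had junction probe ratios of -0.74 and 0.37. The array of 60L had 22% of its spots marked as outliers, against 1.48% over all arrays.

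Within the 3 slides that held both onset groups, early tumors were higher by 4.40, 2.52 and 1.47 on the junction probe and by 4.37, 3.26 and 1.93 on the exon probe. These 3 are slides 1, 2 and 8 in order. On slide 1 the early tumors were all on pubertal LFD and the late ones on pubertal HFD. Every other epithelial slide held only early or only late tumors, and all LFD and HFD-LFD tumors lay on such slides. In these regimens onset and slide cannot be told apart. Slide 8 held 40R4A, 57R and 65R. For those tumors the authors' matrix and the scanner files disagreed on which array was which, and with the labels as in the matrix the differences on slide 8 turned to -1.43 on the junction probe and -1.01 on the exon probe. Over all epithelial tumors the early minus late differences under those labels were 2.15 and 1.91. The early and late means of HFD tumors turned as well, to 2.26 and 2.83 on the junction probe and 3.73 and 4.72 on the exon probe. The study itself listed proliferin among genes higher in early epithelial tumors, so its higher level there is not independent evidence.

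Mean ratios by regimen in epithelial tumors were 3.09 ± 2.19 on LFD-HFD (n = 6), 2.94 ± 2.59 on LFD (n = 8), 2.54 ± 2.62 on HFD (n = 8) and 1.35 ± 1.95 on HFD-LFD (n = 6) on the junction probe (SD). The exon probe gave the same order, with 5.53 ± 2.78 (n = 6), 4.56 ± 2.39 (n = 8), 4.23 ± 2.48 (n = 8) and 2.27 ± 2.34 (n = 7). All neighbours overlapped, and the F-test had an adjusted p of 0.779 and 0.483, with 0.19% of probes called. The 4 late HFD-LFD tumors had exon probe ratios between 0.24 and 1.70. They made up the whole of slide 4, where 1 array had the smallest percentage of spots above background in Cy5 (52.4%) and 2 arrays the largest (92.6% and 94.9%), with interquartile ranges of 1.02 and 1.04, and the part of the arrays in the low values was not tested.

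Pubertal HFD minus pubertal LFD was -0.97 (95% CI -2.68 to 0.74) on the junction probe and -1.66 (-3.47 to 0.15) on the exon probe in epithelial tumors, with adjusted p-values of 0.731 and 0.525 in limma and 0.00311% of probes called. Only 1 slide held both pubertal groups, and there the differences were -4.40 and -4.37. On that slide, however, the pubertal LFD tumors were also the early ones. Adult HFD minus adult LFD was 0.52 (-1.22 to 2.26) and 1.29 (-0.56 to 3.14), with adjusted p-values of 0.974 and 0.965 in limma, 0% of probes called and 1244 at an unadjusted p under 0.05.

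The diet and onset effects were then compared between the histologies as interactions. After pubertal HFD the mean was higher in spindle cell and lower in epithelial tumors, and the effects differed by 2.94 (95% CI -0.26 to 6.15) on the junction probe and by 2.60 (-0.43 to 5.63) on the exon probe, with adjusted p-values of 0.478 and 0.511 in limma and 0.38% of 32123 probes called. The adult diet effects differed by -0.43 (-3.76 to 2.90) and -1.61 (-4.72 to 1.51), with an adjusted p of 1 each in limma, 0% of probes called and 695 at an unadjusted p under 0.05. For onset the differences were -2.03 (-5.34 to 1.27) and -2.17 (-5.39 to 1.05), again with an adjusted p of 1 and 0.00311% of probes called. Over these 11 comparisons 0 calls were thus made for the member probes, and the early against late comparison of epithelial tumors gave the only 2 unadjusted p-values under 0.05.

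Prl2c1, another gene of the Prl2c group, has a probe of its own, and its differences between tumors were smaller than those of the junction probe. In spindle cell tumors its ratio was 1.92 ± 1.37 (SD, n = 12), from -0.56 in M76R through a median of 2.30 to 4.32 in M118R, and in epithelial tumors 1.33 ± 0.97 (SD, n = 29). Its difference of 0.59 between the histologies had an adjusted p of 0.255 in limma. M118R and M76R, the highest and the lowest spindle cell tumor signals on the member probes, held its extremes too. In the tumor channel alone its difference was 1.08 and passed (adjusted p = 0.0324 in limma). With the junction probe it correlated at r = 0.74 (permutation p = 0.0072, adjusted 0.00864) and rho = 0.85 (permutation p = 0.00103, adjusted 0.00309) over 12 spindle cell tumors, falling to r = 0.59 without M76R and M86R. Over 28 epithelial tumors r was 0.61 (permutation p = 0.00033, adjusted 0.00066) and rho 0.57 (permutation p = 0.0017, adjusted 0.00322), and r was 0.49 without 17R and 80L. With the exon probe r was 0.70 (permutation p = 0.0126, adjusted 0.0126) in spindle cell tumors, but rho was 0.57 (permutation p = 0.0596, adjusted 0.0596), and r fell to 0.43 without M76R and M32L, so this relation rests on those tumors. In 29 epithelial tumors r was 0.55 (permutation p = 0.00153, adjusted 0.00229) and rho 0.50 (permutation p = 0.00624, adjusted 0.00749), and r was 0.61 without its 2 farthest tumors. The median reference signal of the Prl2c1 probe was 2338 on spindle cell and 1849 on epithelial arrays, against 46.1 and 35.6 for the junction probe. Its median tumor signals were 11766 and 4896, against 4133 and 189. How much Prl2c1 RNA the junction probe read was not tested.

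Other hormones of the prolactin family were mostly too dim to measure. Of 23 further family genes 22 were on the array and 5 passed the signal filter, with Prl7d1, the proliferin-related antagonist of vessel growth, and Prl itself among those that did not. Between the histologies 2 of the 5 rose in spindle cell tumors and 0 fell, beside 8.63% and 12.7% of all probes. Their median difference was 0.59, against -0.08 over all probes. Prl3a1 had ratios of 1.5 ± 0.69 (SD, n = 12) against 0.76 ± 0.62 (SD, n = 28), adjusted p = 0.0132 in limma. Prl6a1 had 1.13 ± 0.63 (SD, n = 12) against 0.54 ± 0.62 (SD, n = 29), adjusted p = 0.0413. Prl3a1 was well above background in 9 spindle cell and 21 epithelial tumors and Prl6a1 in 10 and 15, and each call was lost under several other settings, with Prl3a1 at 0.10 and an adjusted p of 0.91 in the tumor channel alone and Prl6a1 at 0.45 and an adjusted p of 0.258 in late tumors only (limma).

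Receptors and signal carriers of the family were examined next. Of 10 genes 1 (10%) rose and 1 fell in spindle cell tumors, with a median difference of -0.12. These shares are near the 8.63% higher and 12.7% lower of all probes. Prlr, the prolactin receptor, fell by 1.48 (1.39 ± 1.59, SD, n = 12, against 2.87 ± 1.5, SD, n = 29; adjusted p = 0.0319 in limma). In late tumors only the Prlr difference was -0.90 with an adjusted p of 0.364. Socs3, a feedback inhibitor of Jak and Stat signalling, rose by 0.43 (adjusted p = 0.0439 in limma), and its adjusted p was 0.165 in the tumor channel alone and 0.0972 with normexp and loess. Igf2r, through which proliferins act, had ratios of -0.32 ± 0.58 (SD, n = 12) and -0.66 ± 0.75 (SD, n = 28), a difference of 0.34 that did not pass (adjusted p = 0.316). In the pubertal, adult and onset comparisons within each histology 0 of these 10 genes were called, against 0% to 0.118% of all probes.

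Trophoblast genes mark the normal source of proliferin. Of 20 genes 14 passed the filter, and between the histologies 0 were higher and 2 lower in spindle cell tumors, a share near the 12.7% of all probes, with a median difference of -0.09. Hand1 fell by 0.76 (adjusted p = 0.0202 in limma), with 2 of 12 spindle cell tumors well above background, and Elf5, which mammary luminal cells also express, fell by 1.63 (adjusted p = 0.00841). Tpbpa and Tpbpb, defining genes of the spongiotrophoblast, were below the filter. The mean log2 ratio over the 14 genes lay between -0.71 and 0.59 in spindle cell and between -0.45 and 0.81 in epithelial tumors, so the ranges overlapped.

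The 5 genes whose ratios most resembled those of the member probes over the 12 spindle cell tumors were sought among 16863 gene symbols. They were 6720463M24Rik (r = 0.95), Tnfrsf22 (r = 0.94), a decoy receptor of the TNF family, Csf3 (r = 0.94), the granulocyte colony-stimulating factor, Mthfd1l (r = 0.93), a mitochondrial folate enzyme, and Fosl1 (r = 0.93), the Fra-1 subunit of AP-1. With so many genes over 12 tumors, high values of r are found by selection and are given as a description. Over the epithelial tumors, which the choice did not use, r was -0.14 for 6720463M24Rik, 0.44 for Tnfrsf22, 0.60 for Csf3, 0.37 for Mthfd1l and 0.71 for Fosl1.

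Having been chosen for their likeness over these 12 tumors, the 5 genes necessarily tended to be low where the member probes were low. Fosl1 ratios were 0.53 in M76R, 1.19 in M32L, 1.71 in M128L and 1.80 in M86R, and the other 8 spindle cell tumors lay between 1.94 in M18L and 5.39 in M63L. Csf3 ran from 1.75 in M86R through a median of 3.81 to 5.01 in M33R. All 5 come from the same arrays as the member probes, M76R and M32L included.

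**Figure D5:**
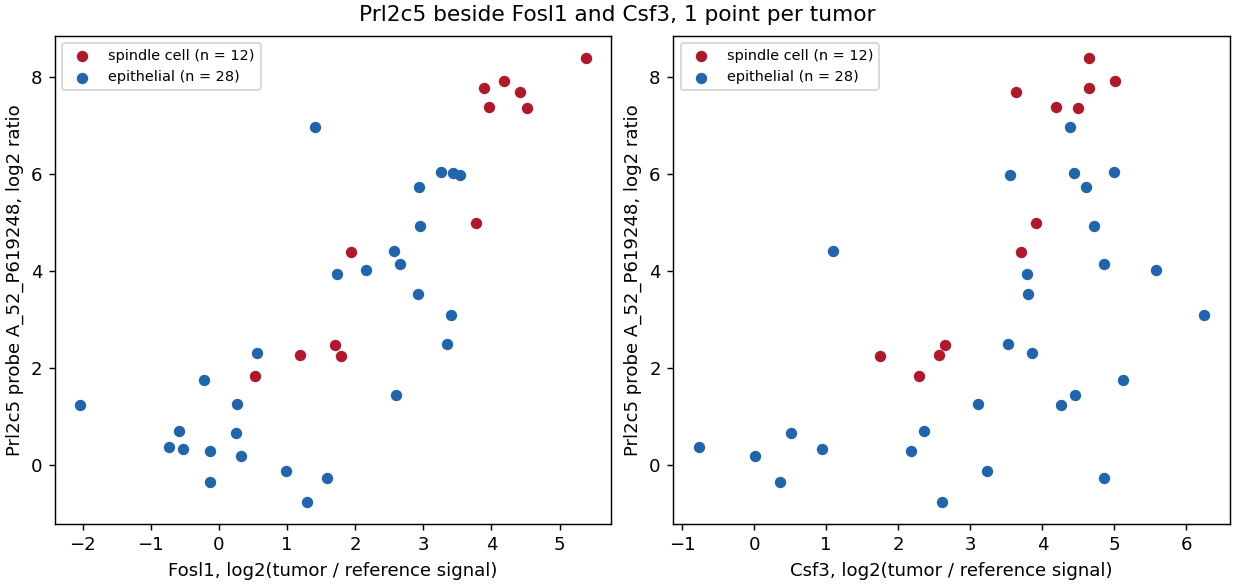
Log2 ratio of the Prl2c5 junction probe (y axis) against that of Fosl1 (left) and Csf3 (right), 1 point per tumor (red, spindle cell; blue, epithelial). Spindle cell tumors with Fosl1 ratios up to 1.80 have junction probe ratios up to 2.49, and M63L has the highest value of both, 5.39 and 8.38.

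Of the 10 genes of AP-1 and the early response, 1 (10%) was higher in spindle cell tumors and 0 were lower, a share near the 8.63% of all probes. That gene was Fosl1, with 3.11 ± 1.57 (SD, n = 12) against 1.40 ± 1.57 (SD, n = 29), adjusted p = 0.0151 in limma. The pubertal, adult and onset comparisons called 0 of the 10 in either histology, against 0% to 0.118% of all probes.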

How the data were processed

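RNA of 41 mouse mammary tumors was hybridised by the authors with a common reference to 2-colour Agilent arrays. The deposited scanner files hold intensity per spot in each channel, background-subtracted and dye-normalized by Feature Extraction (11.0.1.1 for epithelial, 10.5.1.1 for spindle cell arrays per the file headers, 8.5.1.1 per the submitters' processing notes). The authors' matrix of log2 ratios, Lowess-normalized by them, served as an alternative. From the processed signals log2(Cy5/Cy3) was computed, outlier spots (1.48% of 43020 gene spots per array) were left out, and spots of a probe were averaged. Probes whose mean signal exceeded the local background by more than 10 in each channel, on 80% of arrays or more, were retained (32125 of 39429), and all p-values were adjusted over them. Tests used limma 3.58.1 in R 4.3.3 (Benjamini-Hochberg, 0.10 within a histology, 0.05 between them), single probes exact permutation tests, and the fits were tested on simulated data. SAM, the authors' test, was not run. The 2 member probes, and by a fixed rule called genes of the prolactin family and receptor lists, Prlr, Igf2r, Prl7d1 and the 5 most similar genes, were named, and lists took 1 probe per gene, that of highest mean signal. Members and lists were chosen with earlier results of these data known. The labels name neither mouse nor donor, but 3 tumor numbers are each shared by 2 tumors (11L and 11R, 56R and M56LA, and a pair of early HFD-LFD tumors), which may come from 1 mouse, so p-values measure the spread between tumors. Promoters came from RefSeq (GRCm38.p6), and Python 3.11.15 with Biopython 1.88 aligned them. Alternatives covered normalization, filters, slides, single tumors and labels, and precision depends on how many arrays a group has.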

Additional observations from a re-analysis of the deposited data

Results flagged for a closer look

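Among 27 combinations of a probe and a group of 4 to 10 tumors, 1 tumor stood apart from its group. In early epithelial tumors on LFD the exon probe ratio was 2.49 in 31R, against 6.89 in 17R, the nearest of the other 3. Its gap took 0.936 of the range of the 4 tumors, above Dixon's 95% limit for 4 values. Chance marks about 1 in 20 groups in this way, and 1 of 27 was marked here. On the junction probe 31R was also the lowest of these tumors, with 1.76, and was not marked. Its exon probe ratio rests on a reference signal that had been replaced by a surrogate. The other 3 exon probe ratios lay near 7, where ratios of this probe stopped, with tumor signals from 1016 in 22R to 87814 in 17R. The marked gap is therefore uncertain.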

How the results depend on the processing

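Member probes passed the adjusted threshold in 0 of 11 tested comparisons, and under none of the alternatives run. The spindle cell excess kept its sign throughout. It ranged from 2.60 to 4.02 on the junction probe and from 1.82 to 4.17 on the exon probe, the last in the tumor channel alone. Requiring both channels well above background left out the exon probe, so it has no value there. Probes called between the histologies numbered 6852, and 4501 under that filter, 10230 without a filter, 4283 with late tumors only and 4954 with normexp and loess. Early minus late differences over all epithelial tumors stayed positive (those within slide 8 and within HFD turned under the labels of the matrix), from 1.60 to 3.05 (adjusted p 0.117 to 0.482) on the junction probe and from 1.74 to 3.18 (adjusted p 0.19 to 0.5) on the exon probe.

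Signs of spindle cell differences that had not passed any test changed under some alternatives, and the cause was not tested. Without M32L, M76R and M86R, left out for low signal or narrow ratios, the pubertal difference was -0.31 and -0.54 on the 2 probes, and the adult difference on the exon probe was 0.28. These are 3 of the 4 lowest tumors and all on pubertal LFD, so leaving them out raises that group by construction, and the turn says nothing about the diet. M86R did not stand apart in the array measures. The adult difference turned to -0.13 with normexp and loess and to -0.50 in the tumor channel alone on the junction probe, and to 0.051 without background correction and 0.070 with slide as a fixed block on the exon probe. In the authors' matrix the adult interaction of the junction probe was 0.38. Leaving out 1 spindle cell tumor at a time gave adult differences from -0.53 to 0.80 and from -0.69 to 0.15, onset differences from -0.45 to 2.30 and from -0.43 to 1.03, pubertal differences from 1.46 to 2.75 and from 0.54 to 1.32, and adjusted p-values of the regimen test from 0.80 to 1 and from 0.77 to 1, for the junction and the exon probe in turn. Exact permutation tests gave p = 0.184 and 0.279 for the pubertal, 0.918 and 0.682 for the adult and 0.845 and 0.85 for the onset comparison, and 0.541 and 0.442 for the regimens. The adult and regimen comparisons in epithelial tumors could not be fitted with slide as a fixed block. The tumor channel alone, the onset comparison without 17R (2.32 and 2.19) and the matrix labels within slide 8 and HFD were chosen after seeing the data. No paired analysis was possible because compared groups share at most 1 tumor number. With 1 tumor per number the early minus late differences were 2.69 and 2.61. Slides shared by groups were fitted as blocks instead. Signal over background limits the exon probe, whose reference was dim on most epithelial arrays.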
